A study of Homo sapiens with 12 samples.

Results

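The 40 genes described here encode proteins that build ribosomes in the nucleolus or transcribe ribosomal DNA by RNA polymerase I, and they were picked by name from the table of 58735 annotated genes. All 40 had enough counts to be among the 16218 genes tested. Ribosome assembly starts when polymerase I copies the ribosomal DNA into a long precursor RNA. Small nucleolar RNA-protein complexes (snoRNPs) then modify this precursor, and large sets of assembly factors cut and fold it into the small and the large ribosomal subunit. Growing cells spend much of their transcription on this pathway, and the transcription factor MYC and the ERK kinases are known to drive it. By role, the genes are 3 box C/D snoRNP proteins, 4 box H/ACA snoRNP proteins, 12 small subunit factors, 9 large subunit factors, 6 proteins of nucleolar organisation with its helicases, 5 genes of polymerase I and its initiation factors, and ODC1. ODC1 makes polyamines and is not a nucleolar protein.

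The libraries come from 2 human cell lines of anaplastic thyroid carcinoma, an undifferentiated thyroid cancer, and hold RNA selected for poly(A) tails. KHM-5M is labelled BRAF V600E and was grown in RPMI-1640 with fetal bovine serum, and TTA-1 is labelled BRAF wild type and was grown in DMEM with fetal bovine serum. Each received GDC-0994, an ERK inhibitor, at 1 µM or the vehicle DMSO for 24 hours, with 3 libraries in each of the 4 groups. Each genotype is 1 cell line, so genotype, line and medium cannot be told apart. The labels do not say that the 3 libraries of a group came from separate cultures, so p-values measure the spread between these libraries, which may be technical.

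Total counts ranged from 14952970 to 18389915 per library. Among thyroid follicular markers, 3 reached 1 CPM in a group (CPM, counts scaled to the library's size), led by the factor PAX8 at 210 CPM in KHM-5M DMSO and 3.59 CPM in TTA-1 DMSO. The thyroid genes TG, TSHR, SLC5A5 and NKX2-1 stayed below 0.25 CPM in every group. Summed blood markers stayed below 3 CPM and summed C cell markers below 1 CPM in every library. Of 10 genes that read out ERK activity, 9 fell and 1 rose with GDC-0994 in KHM-5M, and 8 fell in TTA-1. Over all genes tested 25.1% fell and 24.6% rose in KHM-5M, and 2.24% fell in TTA-1. Ribosomal RNA carries no poly(A) tail, so the precursor RNA itself was not measured. With whole cultures sequenced, fewer cells expressing a gene and less RNA per cell cannot be told apart.

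RefSeq promoters (GRCh38.p14, 250 bases before to 50 bases after each start site) were matched by symbol for 34 of the 40 genes. BOP1, RRS1, NOLC1, RRP12, RRP1B and NOP58 had no entry. The palindrome CACGTG, the E-box that MYC-MAX dimers are known to bind, was searched on both strands, and it reads the same on each. It was present for 16 of the 34 genes (47.1%). The share was 12.6% of the 10466 protein-coding genes tested here that have an entry and 8.77% of all 27305 genes in the table. CTCGAG, a palindrome of the same letters, was present for 3 of the 34 (8.82%) and for 7.35% of the protein-coding genes tested. The sequences below show the CACGTG in capitals with its flanks for genes of each role that had a match, on the gene's own strand.
FBL: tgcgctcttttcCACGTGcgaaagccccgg
GAR1: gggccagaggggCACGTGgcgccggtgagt
NOP10: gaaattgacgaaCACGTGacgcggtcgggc
RRP9: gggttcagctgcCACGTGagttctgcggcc
UTP4: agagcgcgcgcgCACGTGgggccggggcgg
UTP20: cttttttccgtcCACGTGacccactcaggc
PES1: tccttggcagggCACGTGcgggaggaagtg
GNL3: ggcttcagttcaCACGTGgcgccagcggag
LYAR: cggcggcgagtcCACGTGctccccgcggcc
DDX21: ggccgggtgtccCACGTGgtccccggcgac
ODC1: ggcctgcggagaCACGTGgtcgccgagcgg
On the minus strand lie the windows of FBL (chr19:39846356-39846385), NOP10 (chr15:34343130-34343159), RRP9 (chr3:51941892-51941921) and PES1 (chr22:30591880-30591909). LYAR (chr4:4290068-4290097) and ODC1 (chr2:10447990-10448019) are on the minus strand too. On the plus strand lie those of GAR1 (chr4:109815781-109815810), UTP4 (chr16:69132621-69132650), UTP20 (chr12:101280083-101280112), GNL3 (chr3:52686026-52686055) and DDX21 (chr10:68956604-68956633). NOP10 and ODC1 each hold a further match, which gives 18 sites in all. Of the 18 sites, 16 start within 50 bases of the start site, against 37.8% of the 1599 sites in promoters of the protein-coding genes tested. None of the polymerase I genes in the table holds a match. The other 128 genes of ribosome assembly, polymerase I, the exosome and polyamine metabolism with an entry held a match in 25.0%. A match describes letters in a window and says nothing of binding in these cells.

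In KHM-5M, most of these genes were lower after GDC-0994. Of the 40, 33 fell, none rose and 7 were not called, with a call at an adjusted p below 0.05 in edgeR's quasi-likelihood test with Benjamini-Hochberg adjustment over all genes tested. Their median log2 fold change was -0.51, beside 0.02 over all genes tested, of which 25.1% were called lower and 24.6% higher. The 6 genes at a log2 fold change of -1 or lower were NOP56, BOP1, RRP9, DKC1, PPAN and FBL. They are 15% of the 40, beside 9.03% of all genes tested, and PPAN among them had low counts. In 33 of the 40 genes every treated library lay below every control library, which was the case for 30.6% of all genes tested, and in 1 gene, NOB1, every treated library lay above, as in 30.4% of all genes. The 40 genes together took 0.622%, 0.634% and 0.601% of all counts in the 3 KHM-5M DMSO libraries and 0.427%, 0.434% and 0.436% in the 3 GDC-0994 libraries. In TTA-1 the share was higher, with 1.15%, 1.14% and 1.15% in DMSO and 1.13%, 1.10% and 1.09% in GDC-0994. The libraries of the groups did not overlap in either line, although the TTA-1 groups lay within 0.1 percentage points of each other. NPM1 took 0.140% and NCL 0.0917% of counts in KHM-5M DMSO on average, and the other 38 genes together took 0.387% there and 0.261% with GDC-0994.

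**Figure D1:**
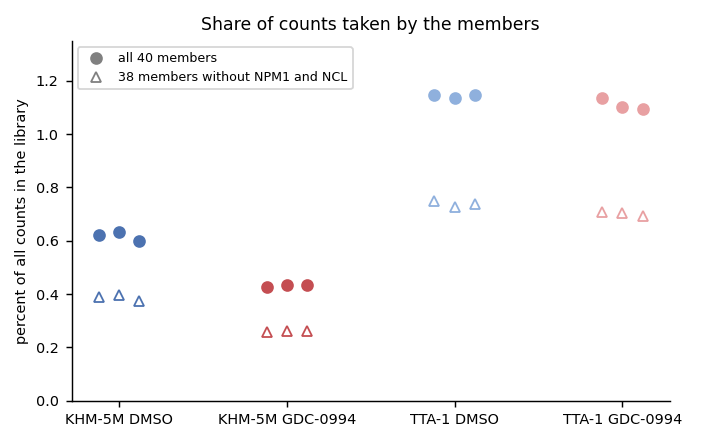
Percent of all counts in a library taken by the 40 genes (circles) and by the 38 without NPM1 and NCL (triangles), 1 point per library and 3 libraries per group. The KHM-5M GDC-0994 libraries sit between 0.427% and 0.436% and the KHM-5M DMSO libraries between 0.601% and 0.634%, below all TTA-1 libraries.

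The box C/D snoRNPs, which guide methylation of ribosomal RNA, were the role with the largest median fall in KHM-5M, -1.03, and all 3 of their genes fell. NOP56 (ENSG00000101361, chr20:2652145-2658393) encodes a core protein that holds the guide RNA. It had 280.0, 275 and 262 CPM in the KHM-5M DMSO libraries and 124, 108 and 115 CPM in the GDC-0994 libraries. The TTA-1 libraries had 309.9, 259 and 295 CPM in DMSO and 283, 289 and 285 CPM in GDC-0994. The KHM-5M groups were far apart, whereas the TTA-1 groups overlapped. NOP56 fell to 42.4% of its DMSO level in KHM-5M (log2 fold change -1.24 ± 0.08, SE; edgeR adjusted p = 7.83e-10) and was not called in TTA-1 (-0.01 ± 0.07; adjusted p = 0.979).

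NOP58 (ENSG00000055044, chr2:202265716-202303666) is the partner of NOP56 in the same particle. Its level was 84.6, 91.3 and 82.6 CPM in KHM-5M DMSO and 49.3, 57.5 and 64.1 CPM in GDC-0994. In TTA-1 it was 195, 227 and 202 CPM in DMSO and 215, 196 and 197 CPM in GDC-0994. All TTA-1 libraries exceeded all KHM-5M libraries, and only in KHM-5M did the treatment groups separate. NOP58 fell by less than NOP56 in KHM-5M (-0.60 ± 0.09; edgeR adjusted p = 4.81e-05). The FPKM ratio of NOP56 to NOP58 was 1.93 ± 0.0926 (SD, n = 3) in KHM-5M DMSO and 1.26 ± 0.241 in GDC-0994, with no overlap between libraries. In TTA-1 this ratio was 0.852 ± 0.141 and 0.863 ± 0.0504. FBL, the fibrillarin methyltransferase of the particle, fell from 235 ± 4.26 CPM to 115 ± 9.48 CPM in KHM-5M (-1.03 ± 0.12; adjusted p = 2.17e-06) and had -0.29 ± 0.12 in TTA-1 (adjusted p = 0.205).

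The box H/ACA snoRNPs, which turn uridines of ribosomal RNA into pseudouridines, gave a more uneven picture, with 3 of 4 genes lower in KHM-5M and a median of -0.63. DKC1 (ENSG00000130826, chrX:154762742-154777689) encodes dyskerin, the pseudouridine synthase, which is also a part of telomerase. Its KHM-5M libraries had 169.6, 181 and 159.9 CPM in DMSO and 80.5, 76.3 and 76.7 CPM in GDC-0994. Its TTA-1 libraries had 349, 296 and 318 CPM in DMSO and 311, 294 and 306 CPM in GDC-0994. DKC1 was thus lower in every treated KHM-5M library (-1.13 ± 0.07; edgeR adjusted p = 1.78e-09), and its TTA-1 groups overlapped (-0.08 ± 0.07; adjusted p = 0.600). GAR1, a partner of dyskerin, fell in KHM-5M (-0.63 ± 0.11; adjusted p = 1.07e-04), with 0.17 ± 0.10 in TTA-1. On the FPKM scale the ratio of DKC1 to GAR1 was 2.79 ± 0.171 in KHM-5M DMSO and 1.97 ± 0.116 in GDC-0994. In TTA-1 the ratio was 3.31 ± 0.279 and 2.78 ± 0.251, with overlapping libraries.

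NOP10 (ENSG00000182117, chr15:34341713-34343177), the smallest core protein, had the smallest difference of the 4 in KHM-5M. Its KHM-5M levels were 76.2, 72.7 and 70.9 CPM in DMSO and 62.0, 60.8 and 55.2 CPM in GDC-0994. In TTA-1 the levels were 120.1, 72.2 and 105 CPM in DMSO and 88.4, 65.2 and 47.6 CPM in GDC-0994. The KHM-5M groups did not overlap, but the difference was not called (-0.30 ± 0.18; edgeR adjusted p = 0.175), nor was that in TTA-1 (-0.56 ± 0.18; adjusted p = 0.107), where the groups overlapped. NHP2, the remaining partner, was singled out after its values were seen, because its TTA-1 DMSO libraries disagreed. It had 115, 117 and 113 CPM in KHM-5M DMSO and 84.2, 69.6 and 69.5 CPM in GDC-0994. In TTA-1 it had 96.5, 31.2 and 73.5 CPM in DMSO and 49.0, 42.5 and 41.5 CPM in GDC-0994, with DMSO replicate 2 below all treated libraries. NHP2 fell in KHM-5M (-0.63 ± 0.24; adjusted p = 0.0386). That call was lost when KHM-5M DMSO library 1 (adjusted p = 0.0998), 2 (0.102) or 3 (0.0917), or treated KHM-5M library 2 (0.112) or 3 (0.129), was left out. The same held for TTA-1 DMSO library 3 (0.0608) and treated TTA-1 libraries 1 (0.0574), 2 (0.0608) and 3 (0.0582), for DESeq2 (0.149), for the stricter filter (0.0539) and for limma on FPKM (0.107 to 0.237). Of its exon bases, 27.4% lie within RMND5B on the other strand, and the libraries do not mark strand. Other gene models also cover 17.1% to 23.2% of exon bases in HEATR1, NOB1, NOP16, POLR1C, NOP14 and WDR3.

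**Figure D2:**
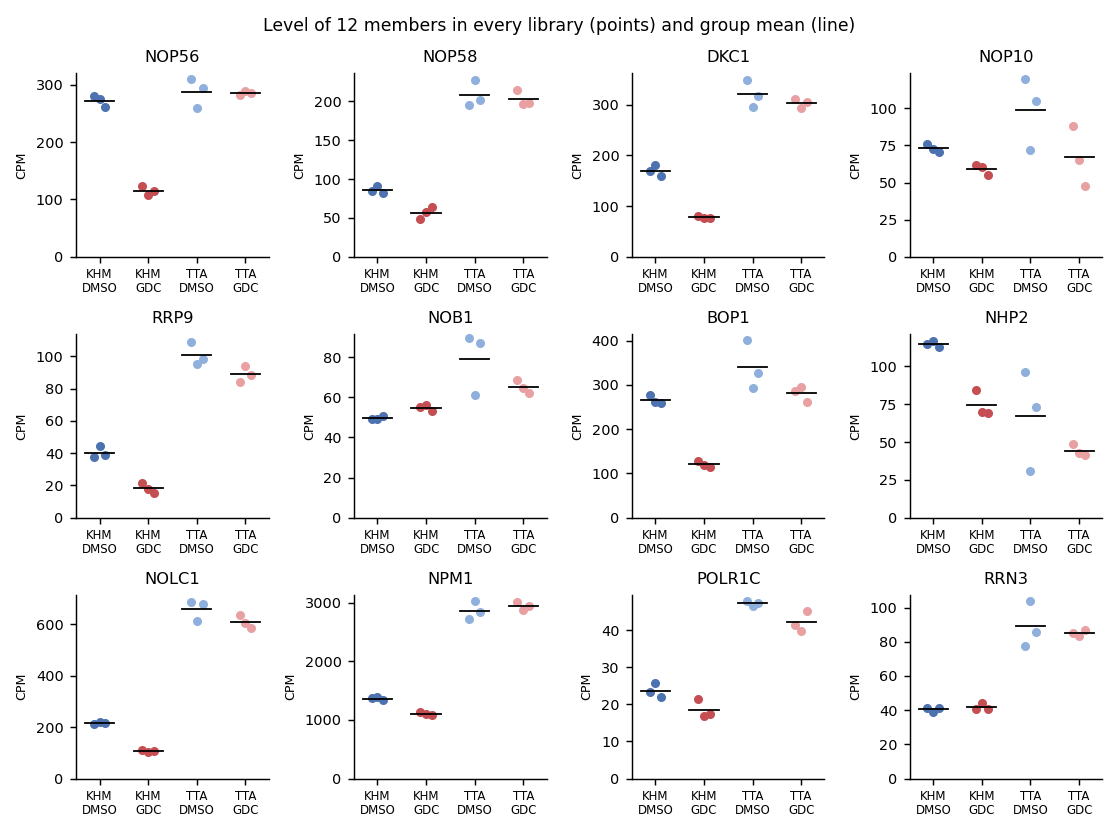
CPM of 12 of the genes in each library (points) with the group mean (line), in KHM-5M and TTA-1 with DMSO or GDC-0994 (GDC), 3 libraries per group. NOP56, DKC1, RRP9, BOP1 and NOLC1 drop in KHM-5M with no overlap, the TTA-1 points of NOP56, DKC1, BOP1 and NOLC1 overlap, and NHP2 spreads from 31.2 to 96.5 CPM in TTA-1 DMSO.

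Of the 12 small subunit factors 8 fell in KHM-5M, with a median of -0.43 and a range from -1.13 to 0.14. RRP9 (ENSG00000114767, chr3:51933430-51941941) belongs to the snoRNP that directs the first cuts of the small subunit precursor. It had 37.6, 44.2 and 38.7 CPM in KHM-5M DMSO and 21.4, 18.1 and 15.5 CPM in GDC-0994. Levels in TTA-1 were 109, 95.2 and 98.3 CPM in DMSO and 84.0, 94.2 and 88.8 CPM in GDC-0994. The treated libraries lay below the controls in both lines, but only the KHM-5M difference was called (-1.13 ± 0.11; edgeR adjusted p = 2.38e-07), whereas TTA-1 had -0.18 ± 0.10 (adjusted p = 0.380). UTP4, of the complex that joins the precursor while it is being transcribed, fell by 0.76 ± 0.07 on the log2 scale in KHM-5M. BYSL, which acts late, had a log2 fold change of -0.54 ± 0.08 there, and RRP12, an export factor, one of -0.49 ± 0.08. NOP14 (-0.50 ± 0.10) and WDR43 (-0.50 ± 0.08) fell by about as much. UTP20 (-0.37 ± 0.12; adjusted p = 0.0207) and WDR3 (-0.24 ± 0.09; adjusted p = 0.0334) fell by less. The UTP20 call was lost when KHM-5M DMSO library 2 (0.0992) or treated KHM-5M library 1 (0.0789) or 2 (0.0549) was left out, and with limma on FPKM (0.0547 to 0.145).

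WDR3 did not pass under 16 of its 24 alternatives, among them each removal of a KHM-5M library (adjusted p from 0.0577 to 0.131), and its adjusted p reached 0.148. The uncalled factors UTP15, HEATR1 and WDR75, which like UTP4 belong to the early complex, had log2 fold changes of -0.17 ± 0.12, -0.17 ± 0.10 and -0.14 ± 0.10 in KHM-5M, and the libraries of the groups overlapped. NOB1 (ENSG00000141101, chr16:69741867-69754940) encodes the nuclease that makes the last cut of the small subunit RNA in the cytoplasm. It had 49.1, 49.3 and 50.5 CPM in KHM-5M DMSO and 55.2, 56.0 and 53.1 CPM in GDC-0994. The TTA-1 values were 89.4, 61.1 and 86.9 CPM in DMSO and 68.3, 64.6 and 62.0 CPM in GDC-0994. NOB1 was the only gene of the 40 with every treated KHM-5M library above every control, and its difference of 0.14 ± 0.11 was not called (edgeR adjusted p = 0.312). It was called at 0.17 without TTA-1 DMSO replicate 2 and at 0.29 once a trend with GC content and length was removed from each library.

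Of the 9 large subunit factors 8 fell in KHM-5M, with a median of -0.56. BOP1 (ENSG00000261236, chromosome 8, 144262102 to 144291370) forms a complex with PES1 and WDR12 that is needed for large subunit maturation. Its KHM-5M levels were 276, 262 and 258 CPM in DMSO and 128, 119 and 113 CPM in GDC-0994. Its TTA-1 levels were 400.4, 294 and 326 CPM in DMSO and 287, 296 and 262 CPM in GDC-0994. BOP1 fell to 45.3% of its DMSO level in KHM-5M (-1.14 ± 0.10; edgeR adjusted p = 3.76e-08), with overlapping groups and no call in TTA-1 (-0.27 ± 0.09; adjusted p = 0.135). Its partners PES1 (-0.56 ± 0.09) and WDR12 (-0.53 ± 0.09) fell by about as much as each other. The FPKM ratio of BOP1 to PES1 was 2.15 ± 0.0562 in KHM-5M DMSO and 1.44 ± 0.0234 in GDC-0994, with no overlap, and that of WDR12 to PES1 was 0.212 ± 0.00699 and 0.216 ± 0.0126, with overlap. In TTA-1 the ratio of BOP1 to PES1 was 2.24 ± 0.0970 in DMSO and 2.07 ± 0.0544 in GDC-0994, also with no overlap.

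NOP16 (-0.78 ± 0.11), RRS1 (-0.76 ± 0.09), RRP1B (-0.53 ± 0.06) and GNL3 (-0.49 ± 0.07), which encodes nucleostemin, also fell in KHM-5M. NOP2 and PPAN are uncertain, because reads in the part of a gene shared with another gene model may not have been counted. For NOP2 (ENSG00000111641, chr12:6556863-6568691), an RNA methyltransferase, 54.4% of exon bases lie within another gene model, and it had 5 to 18 counts per library. Its libraries had 0.789, 0.635 and 0.745 CPM in KHM-5M DMSO and 0.422, 0.553 and 1.04 CPM in GDC-0994. In TTA-1 they had 0.391, 0.395 and 0.820 CPM in DMSO and 0.600, 1.20 and 0.346 CPM in GDC-0994. The groups overlapped in each comparison, and at this depth no difference was detectable. PPAN, with 59.8% of exon bases within other models and 16 to 67 counts per library, fell (-1.13 ± 0.30; edgeR adjusted p = 0.00513) although its KHM-5M groups overlapped. The other 38 genes had 250 to 46184 counts per library, and without NOP2 and PPAN 32 of 38 fell, with the same median of -0.51.

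All 6 proteins of nucleolar organisation and helicases fell in KHM-5M, with a median of -0.77. NOLC1 (ENSG00000166197, chr10:102152176-102163871) encodes a chaperone that escorts snoRNPs through the nucleus. Its libraries had 213, 218 and 215 CPM in KHM-5M DMSO and 111, 104 and 109 CPM in GDC-0994. In TTA-1 they had 685, 611 and 679 CPM in DMSO and 635, 604 and 585 CPM in GDC-0994. NOLC1 was at 50.1% of its DMSO level in treated KHM-5M (-0.997 ± 0.07; edgeR adjusted p = 1.89e-09), and its TTA-1 groups overlapped (-0.12 ± 0.06; adjusted p = 0.381). NPM1 (ENSG00000181163, chr5:171387116-171411137), the nucleophosmin of the outer nucleolus, moved least. It had 1368, 1391 and 1339.6 CPM in KHM-5M DMSO and 1132, 1099 and 1080.2 CPM in GDC-0994.

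In TTA-1 NPM1 had 2722, 3037 and 2848 CPM in DMSO and 3021, 2885 and 2940.2 CPM in GDC-0994. Its KHM-5M groups did not overlap despite the small change (-0.31 ± 0.06; edgeR adjusted p = 2.79e-04), and TTA-1 showed no separation (0.04 ± 0.06; adjusted p = 0.784). Per gene length NPM1 was the most abundant of the 40 genes, at 352 ± 7.95 FPKM in KHM-5M DMSO and 728 ± 41.5 FPKM in TTA-1 DMSO. LYAR (-0.98 ± 0.13), nucleolin (NCL, -0.80 ± 0.07), MYBBP1A (-0.74 ± 0.10) and the RNA helicase gene DDX21 (-0.50 ± 0.10) lay between NOLC1 and NPM1 in KHM-5M.

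The polymerase I genes showed the smallest differences, with a median of -0.30 and 4 of 5 called lower in KHM-5M. POLR1C (ENSG00000171453, chr6:43509702-43562419) encodes a subunit that polymerase I shares with polymerase III. It had 23.3, 25.9 and 21.9 CPM in KHM-5M DMSO and 21.5, 16.8 and 17.5 CPM in GDC-0994. In TTA-1 there were 48.0, 46.7 and 47.3 CPM in DMSO and 41.4, 39.8 and 45.2 CPM in GDC-0994. The treated libraries lay just below the controls in each line, and the KHM-5M difference was called (-0.35 ± 0.11; edgeR adjusted p = 0.0115) and the TTA-1 difference was not (-0.17 ± 0.10; adjusted p = 0.416). POLR1C did not pass once KHM-5M DMSO library 2 (adjusted p = 0.0996) or treated KHM-5M library 2 (0.0697) or 3 (0.0795) was left out. POLR1A, the gene of the largest subunit, fell by 0.30 ± 0.07 on the log2 scale (adjusted p = 0.00224).

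UBTF, which opens ribosomal DNA for transcription, had -0.31 ± 0.09 (edgeR adjusted p = 0.0111) and did not pass once KHM-5M DMSO library 1 (0.0835) or 3 (0.0549) or treated KHM-5M library 3 (0.108) was left out, or with limma on unfiltered FPKM (0.0654). POLR1B, the second largest subunit, had -0.26 ± 0.09 (adjusted p = 0.0340) and lost its call under 15 of 24 alternatives, with an adjusted p of up to 0.210 when KHM-5M DMSO library 2 was left out. RRN3 (ENSG00000085721, chr16:15060022-15094317) encodes the factor that makes polymerase I competent to start. It had 41.6, 38.8 and 41.3 CPM in KHM-5M DMSO and 40.6, 44.3 and 40.8 CPM in GDC-0994. TTA-1 libraries stood at 77.3, 104 and 85.9 CPM in DMSO and 85.4, 83.6 and 86.6 CPM in GDC-0994. The groups overlapped in both lines, and neither difference was called (0.05 ± 0.10 in KHM-5M, adjusted p = 0.714, and -0.06 ± 0.09 in TTA-1, adjusted p = 0.785).

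ODC1 (ENSG00000115758, chr2:10439968-10448504), the first and rate-limiting enzyme of polyamine synthesis, had 277, 263 and 243 CPM in KHM-5M DMSO and 210.2, 218 and 202 CPM in GDC-0994. The TTA-1 levels were 893, 895 and 879 CPM in DMSO and 799, 811 and 768 CPM in GDC-0994. Treated libraries lay below controls in both lines. The fall was called in KHM-5M (-0.31 ± 0.06; edgeR adjusted p = 5.73e-04) and not in TTA-1 (-0.17 ± 0.06; adjusted p = 0.172), and the effects were not called different (-0.15 ± 0.09; adjusted p = 0.248).

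**Figure D3:**
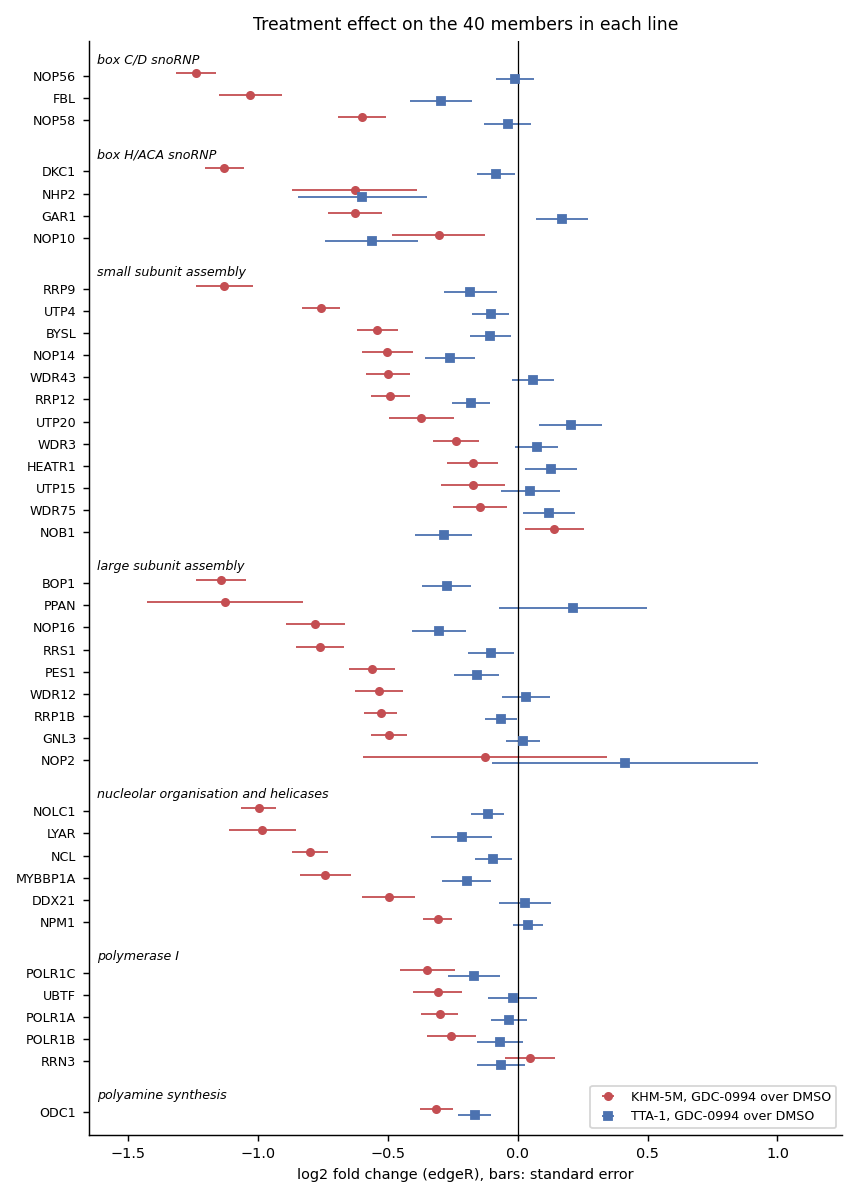
Log2 fold change of GDC-0994 over DMSO (edgeR) for each of the 40 genes in KHM-5M (circles) and TTA-1 (squares), ordered by role, with bars for the standard error. In KHM-5M the values run from -1.24 (NOP56) to 0.14 (NOB1), with the polymerase I genes between -0.35 and 0.05, and in TTA-1 they run from -0.60 (NHP2) to 0.41 (NOP2).

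In TTA-1 none of the 40 genes was called by edgeR, where 3.43% of all genes tested were called and 2.24% were called lower. Their median log2 fold change was -0.07, and 9 of the 40 (22.5%) had an unadjusted p below 0.05, as had 17.4% of all genes tested. DESeq2 and limma on log2(FPKM + 1) called none either. In 6 genes, RRP9, RRP12, UTP4, RRP1B, POLR1C and ODC1, the treated libraries lay below all controls, and no gene had the reverse. Across all genes tested, 9.05% lay below and 9.75% above. This count of 0 turned on 1 library: without TTA-1 DMSO replicate 2, 12 genes were called, of which 10 were lower and 2 were higher. The lower ones included NHP2 (-0.96), NOP10 (-0.77), NOB1 (-0.46), FBL (-0.45) and BOP1 (-0.39), and the higher ones were UTP20 (0.36) and HEATR1 (0.26). Over all genes 2620 were called without it, against 556 with it. Without TTA-1 GDC-0994 replicate 1 NOP10 was called (-0.83), and 5 genes were called with no filter on low counts.

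The TTA-1 DMSO libraries differed from each other along GC content. Over 38 of the genes, without NOP2 and PPAN, the log2 ratio of a library to its group mates was correlated with the GC content of the transcript, at 0.74 for replicate 1, -0.66 for replicate 2 and 0.31 for replicate 3, given as a description since genes share libraries. Over all genes tested with a mean log2 CPM above 3 and a known GC content, the same values were 0.74, -0.70 and 0.16. NHP2 marked the extremes, at 1.01 in replicate 1 and -1.43 in replicate 2, and UTP20 the other end, at -0.51 and 0.49. Among treated libraries, KHM-5M replicate 1 (0.69), KHM-5M replicate 3 (-0.57) and TTA-1 replicate 2 (0.52) also stood apart over these 38 genes. Leaving out both TTA-1 DMSO replicates 1 and 2 makes replicate 3 the lone control and assumes that it varies like the other groups. The median log2 fold change of the 40 genes was then -0.075 in TTA-1 and -0.54 in KHM-5M. With the GC content and length trend removed, 1 of the 40 genes was called in TTA-1. Over all genes tested 960 were then called there, against 556 as reported. In KHM-5M 36 of the 40 were lower and 1 higher with the trend removed. Over all genes tested 8943 were then called there, of which 51.4% were higher, against 8069 as reported. Over the 38 genes the treatment log2 fold change was correlated with GC content at -0.43 in KHM-5M and -0.59 in TTA-1. For the difference of the 2 effects the correlation was -0.12. The log2 fold change of KHM-5M over TTA-1 was correlated with GC content at 0.48 in DMSO and 0.37 in GDC-0994. These values are a description, and the part of GC content in single genes of either line was not tested further.

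**Figure D4:**
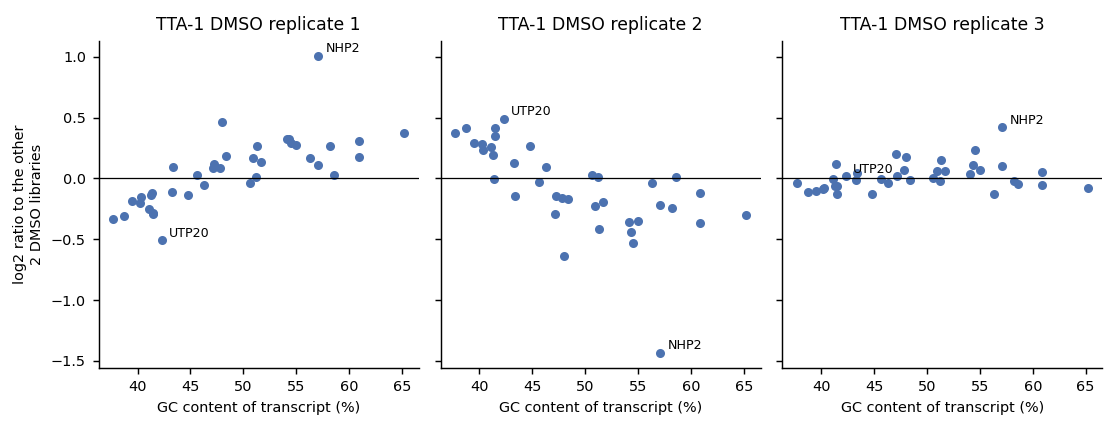
Log2 ratio of each TTA-1 DMSO library to its group mates for 38 genes (points) against GC content of the longest transcript in percent. Points climb with GC content in replicate 1 and drop in replicate 2, and NHP2 lies at 1.01 and -1.43.

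The treatment effects themselves differed between the lines for 25 of the 40 genes, all lower in KHM-5M, in an interaction test in edgeR that called 27.9% of all genes and 15.6% as lower in KHM-5M. The median difference was -0.50, beside 0.02 over all genes. All 3 box C/D genes, 8 of 9 large subunit factors and all 6 of nucleolar organisation and helicases were called. So were 2 of 4 box H/ACA genes and 6 of 12 small subunit factors. Of the 5 polymerase I genes none was called in this edgeR test, with 2 at an unadjusted p below 0.05, and ODC1 was not called. The differences of NOP56 (-1.23 ± 0.11; adjusted p = 1.61e-07) and DKC1 (-1.05 ± 0.10; adjusted p = 7.14e-07) were the most certain. NHP2 had -0.03 ± 0.34 (adjusted p = 0.989), an interval too wide to say that the lines act alike. Under every alternative that tested them 18 of the 25 calls held, and RRP12, UTP20, BYSL, NOP16, PES1, PPAN and DDX21 lost theirs under at least 1. Of 23 alternatives, the call held under 6 for RRP12, 12 for NOP16 and 13 for PES1. NOB1 (0.43 ± 0.16; edgeR adjusted p = 0.0535) was not called, but was called as higher in KHM-5M under 8 of 23 alternatives, at 0.63 when TTA-1 DMSO library 2 was left out.

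Without drug, the genes were lower in KHM-5M than in TTA-1 for the most part. In DMSO 34 of the 40 were lower, 2 higher and 4 not called, where 76.5% of all genes tested were called, 36.8% lower and 39.6% higher, and the median was -0.98 beside 0.03 over all genes. In the reported fit the widest gaps were WDR43 (-2.11 ± 0.08), with 57.0 ± 1.18 CPM in KHM-5M and 246 ± 23.7 CPM in TTA-1, and WDR3 (-1.98 ± 0.09), DDX21 (-1.93 ± 0.10) and ODC1 (-1.77 ± 0.06). This order depended on the processing. Over the alternatives WDR43 ran from -2.15 to -1.73 and WDR3 from -2.03 to -1.68. MYBBP1A, at -1.34 as reported, reached -2.20, and BOP1, at -0.36 as reported, reached -1.25. All 12 small subunit factors and all 6 genes of nucleolar organisation and helicases were lower. The 4 genes not called were NOP56, FBL, NOP2 and PPAN. With the GC content and length trend removed, NOP56 (-0.41; edgeR adjusted p = 1.82e-06) and FBL (-0.37; adjusted p = 2.52e-04) were called lower in KHM-5M, and NOP56 was so called (-0.17) when TTA-1 DMSO library 2 was left out. NOP56 had 49.8 ± 2.02 FPKM in KHM-5M and 51.8 ± 4.65 FPKM in TTA-1, and FBL 107 ± 1.42 and 108 ± 18.9 FPKM. Both are box C/D genes, while their partner NOP58 was lower in KHM-5M (-1.27 ± 0.09).

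NHP2 was higher in KHM-5M than in TTA-1 in DMSO (0.78 ± 0.24; edgeR adjusted p = 0.00769), and with the GC content and length trend removed it was not called (0.35; adjusted p = 0.0594). UBTF was called higher at 0.26 ± 0.09 (adjusted p = 0.0172), a direction that turned to -0.31 with that trend removed, and the call was lost when KHM-5M DMSO library 1 (0.0745) or TTA-1 DMSO library 2 (0.110) was left out. NOP10 (-0.44 ± 0.18; edgeR adjusted p = 0.0351) kept its call under 14 of 24 alternatives. It was not called without any 1 of the 3 KHM-5M DMSO libraries (0.0581 to 0.0980). The same held without TTA-1 DMSO library 1 (0.171) or 3 (0.0998). WDR12 (-0.39) kept its call under 22 of 24, with a log2 fold change of up to -0.09.

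With GDC-0994 in both lines, 35 genes were lower in KHM-5M and 1, NHP2, was higher, where 80.1% of all genes were called, 39.1% lower and 41% higher. NHP2 was not called with the GC content and length trend removed (0.31; edgeR adjusted p = 0.101) or by limma on unfiltered FPKM (adjusted p = 0.0713). The median was -1.42, and 29 of the 40 had a log2 difference of -1 or lower, against 19 in DMSO. Over all genes tested 23.1% had such a difference with drug and 19.4% in DMSO. NOP56 stood at 21.5 ± 1.56 FPKM in KHM-5M and 51.3 ± 0.620 FPKM in TTA-1 with drug (-1.31 ± 0.08; edgeR adjusted p = 6.35e-11). FBL stood at 53.4 ± 4.86 and 88.2 ± 13.4 FPKM (-0.78 ± 0.12; adjusted p = 1.50e-05). The deepest difference in the reported fit was WDR43 (-2.67 ± 0.09), followed by NOLC1 (-2.49 ± 0.07) and DDX21 (-2.46 ± 0.11). Over the alternatives WDR43 ran from -2.69 to -2.20. RRP9, at -2.28 as reported, reached -2.96, and MYBBP1A, at -1.88 as reported, reached -2.85.

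**Figure D5:**
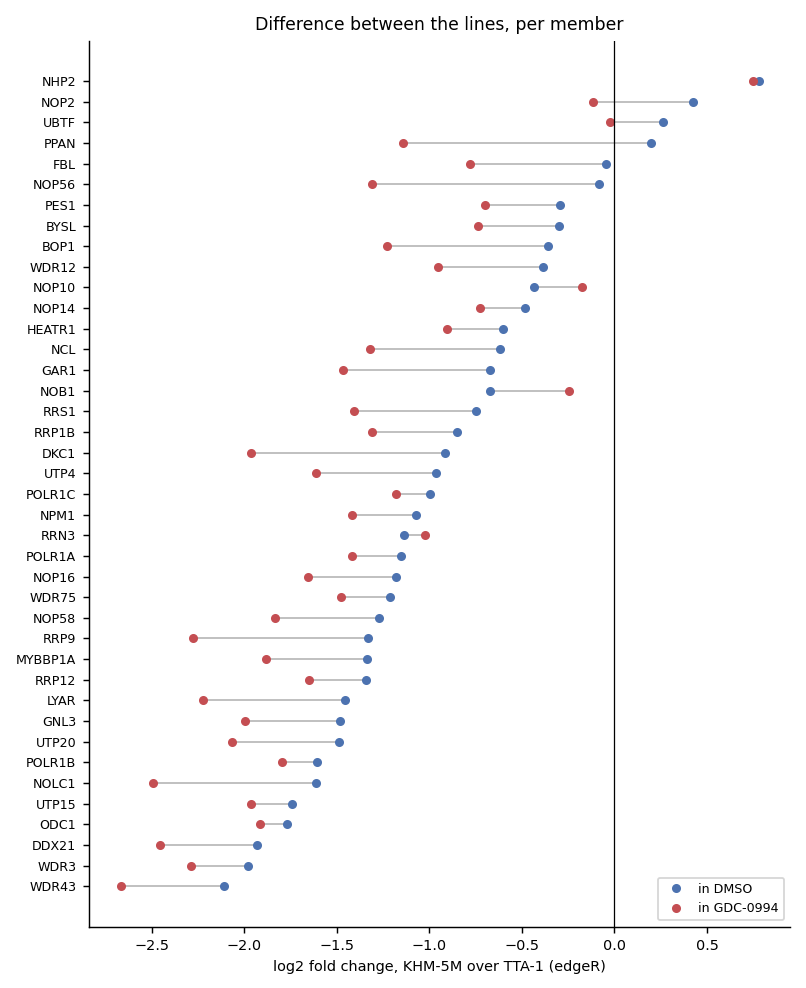
Log2 fold change of KHM-5M over TTA-1 (edgeR) for each of the 40 genes in DMSO and in GDC-0994, joined by a line and ordered by the value in DMSO. Most genes lie below 0 in DMSO and further down in GDC-0994, NOP56 goes from -0.08 to -1.31, and NHP2 stays at 0.78 and 0.75.

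Other genes of the pathway, taken from lists written for the purpose, were also mostly lower in KHM-5M after GDC-0994. Of 149 further genes tested 98 fell and 3 rose in KHM-5M, with a median of -0.38. Over all genes tested 25.1% were called lower and 24.6% higher there, shares that stand beside each count below. In TTA-1 edgeR called none of the 149, where 3.43% of all genes tested were called. There 18 of the 149 had an unadjusted p below 0.05, against 17.4% of all genes tested. Of 10 further snoRNP genes 6 fell, such as SNU13 (-0.61 ± 0.07), a box C/D core protein, and RUVBL2 (-0.85 ± 0.11), an ATPase that helps to assemble snoRNPs. Of 44 further small subunit factors 27 fell, among them UTP18 (-0.92 ± 0.07) and the methyltransferase gene EMG1 (-0.68 ± 0.08). Of 48 further large subunit factors 39 fell, led by PA2G4 (-1.23 ± 0.08) and with EBNA1BP2 at -1.01 ± 0.07. Of 21 genes of the RNA exosome and of rRNA trimming 13 fell, including the exosome subunit genes EXOSC8 (-1.51 ± 0.11) and EXOSC2 (-1.13 ± 0.08).

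Of 15 further polymerase I genes 7 fell and 1 rose in KHM-5M, beside 25.1% called lower and 24.6% higher over all genes tested. The polymerase I subunit genes CD3EAP (-1.07 ± 0.14) and POLR1E (-0.73 ± 0.09) fell, while POLR1D, shared with polymerase III, rose (0.22 ± 0.07; edgeR adjusted p = 0.0152). Of 11 further polyamine genes 6 fell and 2 rose, a share risen no higher than over all genes tested. Spermidine synthase (SRM, -1.12 ± 0.08) and spermine synthase (SMS, -0.61 ± 0.06), which act after ODC1, fell. PAOX (0.83 ± 0.20), an oxidase that breaks polyamines down, and OAZ2 (0.21 ± 0.07), an inhibitor of ODC1 protein, rose. In TTA-1 none of the 11 was called, but their log2 fold changes reached 0.82.

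In KHM-5M MYC and proliferation genes fell as well, and their part in the result was not tested. MYC, whose protein binds the E-box, had 101 ± 3.67 CPM in KHM-5M DMSO and 62.9 ± 4.24 CPM in GDC-0994 (-0.68 ± 0.09; edgeR adjusted p = 1.12e-05). For TTA-1 the values were 601 ± 55.0 CPM and 417 ± 49.1 CPM (-0.53 ± 0.09; adjusted p = 0.00231), so MYC fell in both lines and the effects were not called different (-0.15 ± 0.13; adjusted p = 0.421). MAX, its partner, had -0.36 ± 0.09 in TTA-1 (adjusted p = 0.0329) and -0.10 ± 0.09 in KHM-5M, and the difference was not called (adjusted p = 0.155). The TTA-1 value of MAX passed the threshold under 13 of 24 alternatives. It missed it with any 1 of the KHM-5M DMSO libraries, KHM-5M GDC-0994 library 2, TTA-1 DMSO library 1 or 3, or TTA-1 GDC-0994 library 2 or 3 left out (adjusted p up to 0.193), and in a fit of the TTA-1 libraries alone (0.112). The relative MYCL rose in KHM-5M from 0.552 ± 0.142 CPM to 1.63 ± 0.232 CPM (1.55 ± 0.37; adjusted p = 0.00226). MYC was lower in KHM-5M than in TTA-1 in DMSO (-2.57 ± 0.09). All 10 proliferation genes fell in KHM-5M, with a median of -2.35, where 25.1% of all genes tested fell. In TTA-1 edgeR called none of them and 3.43% of all genes tested. There their median was 0.05, and 1 had an unadjusted p below 0.05, against 17.4% of all genes tested. Genes with CACGTG in the promoter had a median log2 fold change in KHM-5M of -0.52 over 16 genes, and those without it -0.31 over 18, given as a description. The set without it holds all 5 polymerase I genes, and also NOP56 (-1.24) and DKC1 (-1.13). Whether the match has a part in the fall was not tested.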

How the data were processed

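Per the labels' protocols, mRNA was selected with poly-T beads and libraries were made without a step that marks the strand. GRCh38 and the tools CASAVA, featureCounts 1.5.0-p3 and HISAT2 2.0.5 are listed in the submitters' processing notes, without role or order. The deposited counts are whole numbers per gene and library. The deposited FPKM equalled, within a relative error of 4.85e-07, the authors' counts divided by gene length and by a library size of 0.975 to 1.08 times the total count. All 58735 gene IDs were found in GENCODE 29. In the labels, the treated KHM-5M samples all carry the same column name, so their titles gave the replicate numbers.

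Differences were tested on the counts in R 4.3.3 by edgeR 4.0.16 (filterByExpr with minimum count 10 and minimum total 15, TMM scaling, glmQLFit and glmQLFTest) in 1 model of 12 libraries with 4 group means and 8 residual degrees of freedom, which was tested on simulated data. CPM are counts scaled to the TMM-scaled library size. The ± sign gives the SE for log2 fold changes and otherwise the SD of 3 libraries. The p-values were adjusted by Benjamini-Hochberg over 16218 genes, and a gene was called at an adjusted p below 0.05. FPKM served for ratios, levels between genes and limma 3.58.1.

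The 40 genes, roles and lists were chosen with earlier results of these data known. All 40 may be named, and values of every library are given for the gene with the largest and the smallest change of each role in KHM-5M. Further genes of the pathway are the most certain calls of each list. Alternatives were size factors from DESeq2 1.42.0, its Wald test, testing without a filter, a stricter filter (1 CPM in 3 libraries, mean count 50), only the groups compared, a replicate block, removal of a GC content and length trend per library, limma on log2(FPKM + 1) and log2(FPKM + 0.1) with a mean FPKM of at least 1 or unfiltered, and leaving out libraries.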

Additional observations from a re-analysis of the deposited data

Results flagged for a closer look

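The effect of GDC-0994 differed between KHM-5M and TTA-1 for 25 of the 40 genes, by the interaction term in edgeR at an adjusted p below 0.05, and each value below is the log2 fold change in KHM-5M minus that in TTA-1. Among the box C/D snoRNP genes the difference was -1.23 for NOP56, -0.73 for FBL and -0.56 for NOP58. Among the box H/ACA snoRNP genes the difference was -1.05 for DKC1 and -0.80 for GAR1. Among the small subunit factors the difference was -0.95 for RRP9, -0.65 for UTP4, -0.58 for UTP20, -0.56 for WDR43, -0.44 for BYSL and -0.31 for RRP12. Among the large subunit factors the difference was -1.34 for PPAN, -0.87 for BOP1, -0.66 for RRS1, -0.57 for WDR12, -0.51 for GNL3, -0.48 for NOP16, -0.46 for RRP1B and -0.40 for PES1. PPAN, the largest of the 25, is uncertain, with 16 to 67 counts per library. Its call held under 14 of 20 alternatives, which gave values from -1.63 to -0.60. The calls of NOP16 and PES1 held under 12 and 13 of 23. Among the genes of nucleolar organisation and helicases the difference was -0.88 for NOLC1, -0.77 for LYAR, -0.71 for NCL, -0.54 for MYBBP1A, -0.52 for DDX21 and -0.35 for NPM1. In each of the 25 genes the fall was in KHM-5M, and none was called in TTA-1 by edgeR, where 9 of the 40 genes (22.5%) and 17.4% of all genes had an unadjusted p below 0.05. Without TTA-1 DMSO replicate 2, 12 of the 40 were called in TTA-1, among them FBL, NOP16, BOP1, PES1, NOLC1 and MYBBP1A as lower and UTP20 as higher. Calls rose over all genes as well, to 2620 in TTA-1 without that library, against 556 with it. The genes with the smallest differences, RRP12 and NPM1, had SEs of 0.10 and 0.08, and the call of RRP12 held under 6 of 23 alternatives.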

How the results depend on the processing

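Over all alternatives, between 28 and 37 of the genes were called in KHM-5M, 19 to 30 for the difference of the treatment effects, 34 to 38 for the lines in DMSO and 35 to 38 in GDC-0994, each within 1.5 times the value reported. In TTA-1, where 0 were called, 5 were called with no filter on low counts, 1 with a replicate block, 1 with the GC content and length trend removed, 2 with the replicate block and that trend removed together, and 3 without TTA-1 DMSO replicates 1 and 2, where the lone control is assumed to vary like the other groups. Leaving out each library in turn gave 0 to 12. Between the lines in DMSO, UBTF turned to -0.31 with the trend removed and to -0.30 with the block and trend removed, and PPAN turned to -0.63 with the block and trend removed. The causes were not tested. Over all genes the TTA-1 count of 556 became 870 in DESeq2, 1206 with no filter, 960 and 1091 with the trend removed without and with the block, 206 with only the TTA-1 libraries, 341 with limma on unfiltered FPKM, and 259 to 2620 with a library left out. Counts over all genes moved in the other comparisons too, as did the number of genes tested. With the lone-control fit left aside, 8069 became 6368 to 9008 in KHM-5M, and 4527 became 3768 to 5801 for the difference of the effects. Between the lines 12405 became 9388 to 13461 in DMSO, and 12997 became 9765 to 14369 in GDC-0994. Equal replicate numbers were not read as pairs: deviations of same-numbered libraries had correlations of 0.0080 to 0.019 in KHM-5M and -0.045 to 0.054 in TTA-1. With the block 32 genes were called in KHM-5M, 24 for the difference and 36 and 37 between the lines. Limma with a filter and the stricter filter tested 38 of the genes, without NOP2 and PPAN, whose low counts limit what can be detected.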
